A study of Rattus norvegicus with 21 samples.

Results

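Glutathione S-transferases are described here in the livers of male Harlan Sprague Dawley rats dosed by mouth with 2-ethylhexyl diphenyl phosphate (EHDP), a triester of phosphoric acid that serves as plasticiser and flame retardant. The set held Gsta3, Gsta4, Gstm1, Gstt1, Gstt3, Gstk1, Mgst1 and Mgst2, and was chosen with earlier results of these data known. Each gene was measured by the probe sets that the platform annotation pairs with that symbol alone, and all 8 were found, with 1 probe set each, among 14218 measured genes. The series held 21 arrays in 6 groups, with 6 arrays from rats given the corn oil vehicle alone and 3 arrays at each of 61.2, 122.5, 244.6, 489.2 and 978.5 mg/kg EHDP in corn oil. All rats, vehicle rats included, were gavaged on 4 days, and pieces of the left lobe of the liver were frozen on day 5. The labels give no age, and the protocol speaks of 5 vehicle rats where 6 vehicle arrays were deposited. No genetic change is named for any group, and each array is described as a separate liver sample, so whether the 6 vehicle arrays stand for 6 animals is not given.

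Glutathione transferases join the tripeptide glutathione to electrophilic molecules, which makes them more soluble and ready for export from the cell. The soluble enzymes fall into classes named by Greek letters, of which alpha, mu and theta are represented here, and Gstk1 belongs to the kappa class of mitochondria and peroxisomes. Mgst1 and Mgst2 are membrane proteins of a separate family that also act on glutathione. In liver these enzymes are abundant in hepatocytes and belong to the second phase of foreign compound metabolism. Transcription of several of them is known to respond to the factor Nrf2 through antioxidant response elements, and to the nuclear receptors CAR and PXR.

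Windows of 250 bases before transcript starts were taken from RefSeq, build GRCr8, for the 6 of 8 members that matched by symbol, and Gstt1 and Mgst2 did not match. The sequence before Gsta3, the member with the largest rise, lies at chr9:31154739-31154988 on the plus strand. That before Gsta4, its class mate with the smaller rise, lies at chr8:87947015-87947246 on the plus strand, and the bases after this gene record's start are left off. That before Mgst1, for which no change was detected, lies at chr4:172760680-172760929 on the plus strand. They are shown so that the upstream letters of these 3 genes can be set beside their signals, and the capitals mark a match to the antioxidant response element core.
Gsta3: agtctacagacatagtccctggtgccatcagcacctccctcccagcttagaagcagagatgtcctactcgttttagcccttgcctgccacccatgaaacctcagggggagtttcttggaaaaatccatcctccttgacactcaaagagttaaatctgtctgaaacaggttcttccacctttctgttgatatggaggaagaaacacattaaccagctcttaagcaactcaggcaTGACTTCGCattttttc
Gsta4: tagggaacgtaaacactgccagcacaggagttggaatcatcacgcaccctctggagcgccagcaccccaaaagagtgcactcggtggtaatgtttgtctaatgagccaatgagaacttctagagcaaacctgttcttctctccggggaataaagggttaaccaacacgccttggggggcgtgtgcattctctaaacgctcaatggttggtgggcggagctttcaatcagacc
Mgst1: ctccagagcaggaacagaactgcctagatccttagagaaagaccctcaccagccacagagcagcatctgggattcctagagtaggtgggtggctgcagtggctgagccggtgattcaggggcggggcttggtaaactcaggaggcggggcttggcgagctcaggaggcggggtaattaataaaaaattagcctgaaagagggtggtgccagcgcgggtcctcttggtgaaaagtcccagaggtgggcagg

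3 motifs were searched on both strands of these windows. The antioxidant response element core was spelled TGACNNNGC, the xenobiotic response element core GCGTG and a nuclear receptor core site AGTTCA. None of the 3 patterns contains another. Gsta3 held TGACTTCGC on the plus strand, from -17 to -9 counted from its transcript start, a core that 10.1% of 33469 rat promoter windows of the same length held. Gsta4 held GCGTG at 3 places, starting at -210, -86 and -73, a pattern present in 25.9% of windows, and AGTTCA once. Gstt3 held AGTTCA once, which 12.2% of windows hold, and another listed start of Gsta3 held GCGTG once and AGTTCA at 2 places. No match was found in the windows of Gstm1, Gstk1 and Mgst1. The windows of Gstm1, Gstt3 and the other start of Gsta3 lie inside the gene records, whose starts come 2624, 1000 and 12054 bases earlier, and the last 82 bases for Gstk1 and 18 for Gsta4, with its AGTTCA match, do so too. No other member window held the antioxidant response element core, those of Gsta4, Gstm1, Gstt3 and Gstk1, which rose, included. Letters further upstream were not searched. These are letter matches within the windows and no measurement of binding, and a link between letters and signals was not tested.

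The arrays were alike in scale, with medians from 6.33 to 6.41 on the log2 scale and a mean correlation of 0.988 to 0.994 with the other arrays. Liver identity was plain in the markers. Signals of the hepatocyte gene Alb lay between 15.30 and 15.36 on all 21 arrays and those of Ttr between 14.77 and 14.91. None of the 9 hepatocyte markers passed the test at 978.5 mg/kg (median log2 difference -0.03), where 6.18% of all genes were called higher and 4.07% lower. In a trend over the order of doses 1 of the 9 fell, as did 728 of 14218 genes. Alb lay at the top of the measured range, and whether a change would register there was not tested. Errors of log2 differences below are standard errors from limma, a linear model with 1 mean per group fitted to all genes and arrays. P-values were adjusted by Benjamini-Hochberg across the 14218 genes, with a threshold of 0.05, and a gene is said to rise or fall only where it passed. The 5 dose comparisons share the same vehicle arrays. Replicate 1 of all 6 groups stood apart in endothelial markers, with list means relative to the vehicle of -0.60 to -0.43 on those 6 arrays and -0.19 to 0.28 on the other 15. In whole tissue, a change in the number of cells of a type and a change of RNA per cell cannot be told apart.

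The transferase transcripts were higher in dosed livers, beginning at the lowest dose with Gsta3, and no member fell at any dose. Limma called 1 of 8 members higher at 61.2 mg/kg, where 0.0141% of all genes were called higher. It called 4 at 122.5 mg/kg against 0.113% of genes, 6 at 244.6 mg/kg against 2.52%, 5 at 489.2 mg/kg against 1.51%, and 7 at 978.5 mg/kg against 6.18%. With replicate 1 of every group left out, a choice made after seeing the data, the counts were 0, 2, 5, 4 and 4, and Gsta3 passed from 122.5 mg/kg and Gstt3 likewise, whereas Gstm1, Gstt1 and Gstk1 did not pass at 978.5 mg/kg (limma adjusted p = 0.118, 0.203 and 0.135). Also lost were the calls of Gsta3 at 61.2 mg/kg, Mgst2 and Gstm1 at 122.5 mg/kg, Gstt1 at 244.6 mg/kg and Gstm1 at 489.2 mg/kg (limma adjusted p = 0.223, 0.0614, 0.379, 0.0935 and 0.161). This fit had fewer arrays, and the share of all genes it called is not given here. Whether its lower counts are particular to the members was not tested. A further 4.07% of genes fell at 978.5 mg/kg, with no member among them. The median log2 difference over the members was 0.32, 0.46, 0.71, 0.51 and 0.62 in order of dose, while the median over all genes stayed between -0.02 and 0.01. Counted without a model, 6, 5, 8, 5 and 6 members had all 3 treated arrays above all vehicle arrays, against 1.48%, 1.81%, 5.51%, 3.54% and 6.74% of genes. As the members were chosen with earlier results of these data known, such counts describe the set and do not test it. Of 18 other genes of these families, limma called 0, 0, 3, 1 and 4 higher in order of dose.

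**Figure D1:**
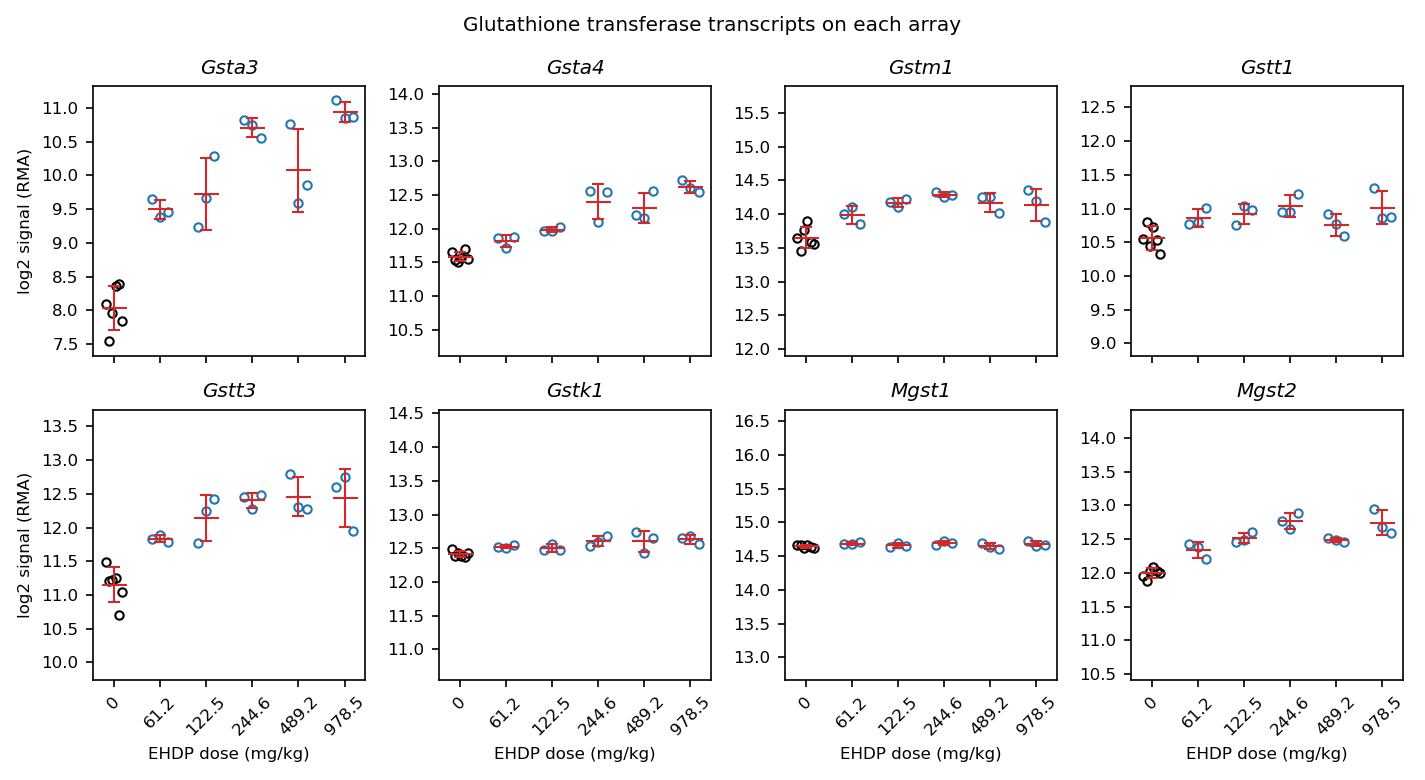
Log2 RMA signal of the 8 transferase transcripts (vertical axis) on each of 21 arrays by EHDP dose in mg/kg (horizontal axis, 0 is the vehicle). Circles are arrays, black for vehicle and blue for dosed rats, the red bars give the mean ± SD, and every panel spans the same height in log2 units. Gsta3 moves from 7.54 to 8.39 in the vehicle to 10.85 to 11.11 at the top dose, whereas all 21 Mgst1 signals lie between 14.61 and 14.73.

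Gsta3, an alpha class enzyme known for its action on aflatoxin epoxide in rodents, had the largest rise of the 8 at every dose. The name is that of the array annotation, and the RefSeq record called Gsta3 also carries the synonyms Gsta5 and Yc2. Its log2 signal in the vehicle ran from 7.54 to 8.39 with a median of 8.03. It was 9.65, 9.38 and 9.46 at 61.2 mg/kg and 9.23, 9.66 and 10.29 at 122.5 mg/kg. Every one of these 6 arrays lay above the highest vehicle array.

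At 244.6 mg/kg Gsta3 stood at 10.82, 10.75 and 10.56, at 489.2 mg/kg at 10.77, 9.59 and 9.86, and at 978.5 mg/kg at 11.11, 10.85 and 10.86. The groups at 244.6 and 978.5 mg/kg were tight, and at 489.2 mg/kg 1 array reached their level while the other two did not. Against vehicle the rise was 1.47 ± 0.23 on the log2 scale at 61.2 mg/kg (2.76-fold, limma adjusted p = 0.0255, n = 3 against 6). It was 3.24-fold at 122.5 mg/kg (limma adjusted p = 0.00165) and 6.41-fold at 244.6 mg/kg (limma adjusted p = 3.04e-06). It was 4.12-fold at 489.2 mg/kg (limma adjusted p = 3.91e-05) and 7.53-fold at 978.5 mg/kg (2.91 ± 0.23, limma adjusted p = 1.31e-07).

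By size of rise Gsta3 ranked 2 of 14218 genes at 61.2 and 122.5 mg/kg, and 9, 7 and 5 at the 3 higher doses. At 61.2 mg/kg only Gsta3 and Ugt2b1, a glucuronosyltransferase, passed among all genes. That call of Gsta3 was lost when any 1 of the 3 arrays at 61.2 mg/kg was left out (limma adjusted p = 0.461, 0.159 and 0.155 without replicates 1, 2 and 3), while the log2 difference stayed between 1.37 and 1.63 in all alternatives. It was also lost without vehicle replicate 1, 2, 3 or 6 (limma adjusted p from 0.0501 to 0.0723).

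Gsta4, the alpha class enzyme known for conjugating 4-hydroxynonenal and related products of lipid peroxidation, rose less. Its vehicle signals ran from 11.51 to 11.70 with a median of 11.56. They were 11.86, 11.71 and 11.87 at 61.2 mg/kg, 11.97, 11.96 and 12.03 at 122.5 mg/kg, and 12.56, 12.10 and 12.55 at 244.6 mg/kg. At 489.2 mg/kg they were 12.20, 12.16 and 12.57, and at 978.5 mg/kg 12.72, 12.60 and 12.55. All 15 treated arrays lay above the vehicle range, by a small margin for replicate 2 at 61.2 mg/kg.

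Gsta4 passed the test from 244.6 mg/kg on, at 1.76-fold (0.82 ± 0.10, limma adjusted p = 0.00011), then 1.65-fold (limma adjusted p = 0.000315) and 2.05-fold (1.04 ± 0.10, limma adjusted p = 1.7e-06). At 61.2 and 122.5 mg/kg its log2 differences were 0.23 ± 0.10 and 0.40 ± 0.10 (limma adjusted p = 0.882 and 0.229), and with array weights it passed at 122.5 mg/kg (limma adjusted p = 0.0173). The change in Gsta3 exceeded that in Gsta4 at every dose, by 1.24, 1.30, 1.86, 1.32 and 1.87 log2 units in order of dose (exact two-sided permutation test over 84 splits of 9 arrays, p = 0.0119 each, the smallest possible, and 0.0137 adjusted over 15 such tests). All treated arrays lay above all vehicle arrays in that difference at each dose.

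Gstm1, the mu class enzyme of rat liver with broad action on epoxides and aryl halides, passed the test from 122.5 mg/kg up. It did not pass between neighbouring doses. Its vehicle signals ran from 13.45 to 13.90 with a median of 13.62. They were 14.00, 14.11 and 13.85 at 61.2 mg/kg, 14.18, 14.10 and 14.23 at 122.5 mg/kg, and 14.32, 14.26 and 14.29 at 244.6 mg/kg. At 489.2 mg/kg they were 14.25, 14.26 and 14.01, and at 978.5 mg/kg 14.35, 14.19 and 13.88. The lowest array at 61.2 mg/kg and the lowest at 978.5 mg/kg fell within the vehicle range, and the groups between did not overlap it. Whether the probe set of Gstm1 registers changes in full at signals this high was not tested.

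Gstm1 was 1.44-fold higher at 122.5 mg/kg (0.52 ± 0.10, limma adjusted p = 0.0498), 1.56-fold at 244.6 mg/kg (limma adjusted p = 0.00123), 1.44-fold at 489.2 mg/kg (limma adjusted p = 0.00621) and 1.41-fold at 978.5 mg/kg (0.49 ± 0.10, limma adjusted p = 0.00398). Its log2 difference at 61.2 mg/kg was 0.34 ± 0.10 (limma adjusted p = 0.754). The call at 122.5 mg/kg sat at the threshold and held in 9 of 33 alternatives, with adjusted p from 0.00417 to 0.429, and in 5 of the 21 fits that left out 1 array. The call at 489.2 mg/kg was lost without replicate 1 of that dose (limma adjusted p = 0.0591).

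Gstt3 and Gstt1, theta class enzymes of the kind known for acting on small halogenated molecules, moved by different amounts. Gstt3 signals in the vehicle ran from 10.70 to 11.48 with a median of 11.21. They were 11.84, 11.88 and 11.78 at 61.2 mg/kg, 11.77, 12.24 and 12.42 at 122.5 mg/kg, and 12.45, 12.28 and 12.48 at 244.6 mg/kg. At 489.2 mg/kg they were 12.79, 12.31 and 12.28, and at 978.5 mg/kg 12.61, 12.75 and 11.95. No treated array overlapped the vehicle, and replicate 3 at the top dose was the lowest of the 3 high doses.

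Gstt3 passed the test from 122.5 mg/kg, with folds of 1.99 (0.99 ± 0.18, limma adjusted p = 0.0267), 2.38 (limma adjusted p = 0.000493), 2.48 (limma adjusted p = 0.000315) and 2.44 (1.29 ± 0.18, limma adjusted p = 0.000115). At 61.2 mg/kg its log2 difference was 0.68 ± 0.18 (limma adjusted p = 0.618), although all 3 arrays lay above the vehicle. The call at 122.5 mg/kg was lost without replicate 2 or 3 of that dose (limma adjusted p = 0.19 and 0.401) and without vehicle replicate 2, 3, 5 or 6 (limma adjusted p from 0.0545 to 0.0582).

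Gstt1 signals in the vehicle ran from 10.33 to 10.80 with a median of 10.54. They were 10.77, 10.80 and 11.01 at 61.2 mg/kg, 10.75, 11.03 and 10.98 at 122.5 mg/kg, and 10.95, 10.94 and 11.22 at 244.6 mg/kg. At 489.2 mg/kg they were 10.91, 10.77 and 10.59, and at 978.5 mg/kg 11.30, 10.87 and 10.87. At 244.6 and 978.5 mg/kg the arrays cleared the vehicle range, and at 489.2 mg/kg 2 of 3 lay inside it.

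Gstt1 was 1.39-fold higher at 244.6 mg/kg (0.47 ± 0.12, limma adjusted p = 0.0304) and 1.37-fold at 978.5 mg/kg (0.45 ± 0.12, limma adjusted p = 0.0188). At 61.2, 122.5 and 489.2 mg/kg its log2 differences were 0.29, 0.36 and 0.19 (limma adjusted p = 0.856, 0.631 and 0.493). The call at 978.5 mg/kg was lost without replicate 1 of that dose (limma adjusted p = 0.151), and that at 244.6 mg/kg without any 1 of its 3 arrays (limma adjusted p from 0.0656 to 0.19) or vehicle replicate 1, 3 or 6 (limma adjusted p from 0.0543 to 0.0635). Gstt1 changed less than Gstt3 by 0.63, 0.78, 1.12 and 0.83 log2 units from 122.5 mg/kg up (exact two-sided permutation p = 0.0238, then 0.0119 at the other three, adjusted p = 0.0255 and 0.0137). The calls at 122.5 and 978.5 mg/kg were lost without replicate 3 and replicate 2 of the dose (exact permutation, adjusted p = 0.0765 each). At 61.2 mg/kg the difference between their changes was -0.39 (exact permutation p = 0.0833, adjusted p = 0.0833).

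Gstk1, the kappa class enzyme, showed the smallest change that passed. Its vehicle signals ran from 12.37 to 12.48 with a median of 12.40, and those at 978.5 mg/kg were 12.66, 12.68 and 12.56, all above the vehicle. That was 1.17-fold higher (0.22 ± 0.07, limma adjusted p = 0.0364). At the doses in between, signals ran from 12.43 to 12.74 and the log2 differences were 0.11, 0.09, 0.20 and 0.19 in order of dose (limma adjusted p = 0.923, 0.903, 0.133 and 0.134). The call at 978.5 mg/kg was lost without any 1 of its 3 arrays (limma adjusted p from 0.0566 to 0.121) or vehicle replicate 2, 3, 4 or 5 (limma adjusted p from 0.0547 to 0.0609).

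Mgst2, which can conjugate glutathione to leukotriene A4 as well as to foreign compounds, had vehicle signals from 11.88 to 12.09 with a median of 12.02. They were 12.43, 12.38 and 12.21 at 61.2 mg/kg, 12.46, 12.48 and 12.61 at 122.5 mg/kg, and 12.77, 12.65 and 12.89 at 244.6 mg/kg. At 489.2 mg/kg they were 12.52, 12.48 and 12.45, and at 978.5 mg/kg 12.95, 12.68 and 12.60. Every treated array exceeded every vehicle array, and the group at 489.2 mg/kg lay below those at the doses on either side of it.

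Mgst2 rose 1.43-fold at 122.5 mg/kg (0.52 ± 0.08, limma adjusted p = 0.00639), 1.71-fold at 244.6 mg/kg (limma adjusted p = 1.66e-05), 1.40-fold at 489.2 mg/kg (limma adjusted p = 0.00175) and 1.68-fold at 978.5 mg/kg (0.74 ± 0.08, limma adjusted p = 6.82e-06). The log2 difference at 61.2 mg/kg was 0.34 ± 0.08 (limma adjusted p = 0.345). The call at 122.5 mg/kg was lost without replicate 3 of that dose (limma adjusted p = 0.135).

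Mgst1, an abundant enzyme of the endoplasmic reticulum and outer mitochondrial membrane, was the member for which no change was detected. Its vehicle signals ran from 14.62 to 14.67, and those of all treated arrays from 14.61 to 14.73. At 978.5 mg/kg the log2 difference was 0.04 ± 0.05, with a 95% interval from -0.07 to 0.14 (limma adjusted p = 0.693). At 61.2 and 244.6 mg/kg all 3 arrays lay above the vehicle range by small amounts, with log2 differences of 0.04 and 0.05 (limma adjusted p = 0.956 and 0.709). The highest signals of any probe set on the arrays were 15.30 to 15.36, so Mgst1 lay near the top of the measured range, and whether its probe set can still register a rise there was not tested. Within that limit, the recorded signal of Mgst1 changed less than that of Mgst2 at all 5 doses, by 0.30, 0.51, 0.72, 0.49 and 0.71 log2 units (exact two-sided permutation p = 0.0119 each, adjusted p = 0.0137).

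**Figure D2:**
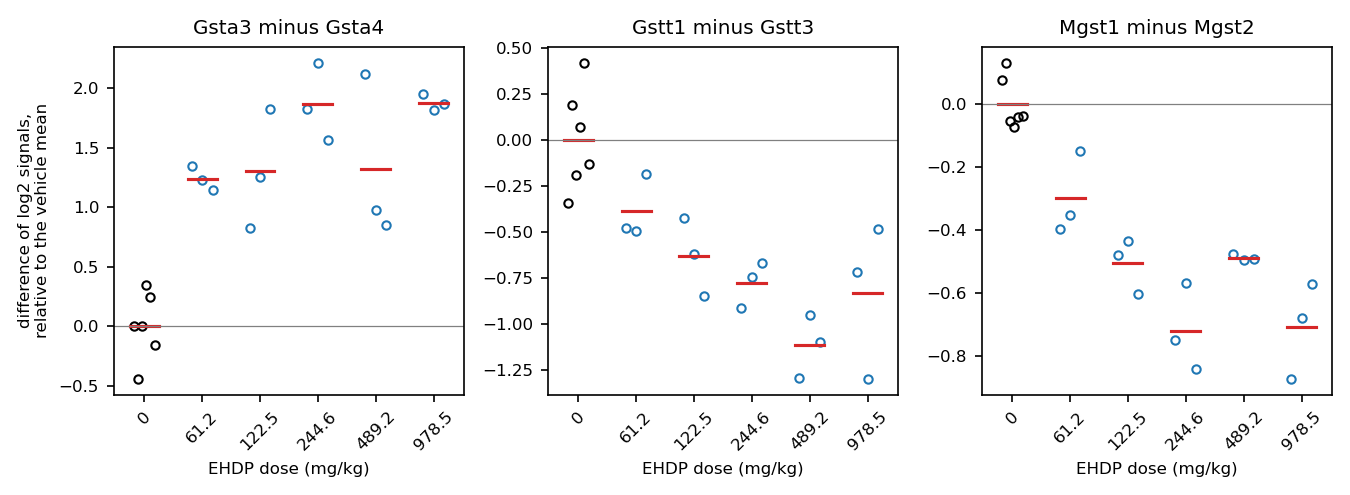
Difference between the log2 signals of 2 members of a class on each array, relative to its vehicle mean (vertical axis, log2 units), by EHDP dose in mg/kg (horizontal axis, 0 is the vehicle). Circles are arrays and bars group means. The dosed arrays of Gsta3 minus Gsta4 and of Mgst1 minus Mgst2 do not overlap the vehicle at any dose, and those of Gstt1 minus Gstt3 overlap it only at 61.2 mg/kg.

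Over dose rank, from 0 for the vehicle to 5 for 978.5 mg/kg, 7 of 8 members had a rising trend, where 6.06% of all genes did. The slope per dose step on the log2 scale was 0.55 for Gsta3 (limma adjusted p = 4.18e-06), 0.27 for Gstt3 (limma adjusted p = 2.77e-05), 0.21 for Gsta4 (limma adjusted p = 1.34e-07) and 0.14 for Mgst2 (limma adjusted p = 7.03e-05). It was 0.11 for Gstm1 (limma adjusted p = 0.003), 0.07 for Gstt1 (limma adjusted p = 0.0449) and 0.04 for Gstk1 (limma adjusted p = 0.00767), and 0.00 for Mgst1 (limma adjusted p = 0.791). Within the treated arrays alone, without the vehicle, 2 members kept a called trend, Gsta3 and Gsta4. With a slope on dose in mg/kg 5 members passed, and Gstm1 and Gstt1 did not (limma adjusted p = 0.119 and 0.174). With replicate 1 of every group left out 4 passed, and Gstm1, Gstt1 and Gstk1 did not (limma adjusted p = 0.0688, 0.382 and 0.0869). The trend of Gstt1 held in 13 of 34 alternatives, and was lost with 13 of the 21 arrays when left out one at a time. The shares of all genes with a called trend in these other fits are not given here.

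The mean rise did not grow at every dose step. Compared with the next lower dose, no member passed the test at 122.5, 244.6, 489.2 or 978.5 mg/kg, where 0%, 0%, 1.70% and 0.106% of all genes passed in either direction. At an unadjusted limma p under 0.05 the counts were 0, 3, 2 and 3 members, beside 4.74%, 4.76%, 11.6% and 13.6% of all genes. From 244.6 to 489.2 mg/kg 7 of 8 members had a difference below 0, as did 6461 of 14218 genes. Of all genes called at this step, 29 rose and 213 fell. The largest difference of a member was that of Gsta3 at -0.64 ± 0.27 (limma adjusted p = 0.341), followed by Mgst2 at -0.29 ± 0.09 (limma adjusted p = 0.161), and Gstt3 was the exception at 0.06 ± 0.20. From 489.2 to 978.5 mg/kg Gsta3 differed by 0.87 ± 0.27 (limma adjusted p = 0.182). With array weights in the fit, 3 members passed between 122.5 and 244.6 mg/kg, Gsta3, Gsta4 and Mgst2 (limma adjusted p = 0.00367, 0.0204 and 0.0378). The share of all genes passing in that weighted fit is not given here.

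**Figure D3:**
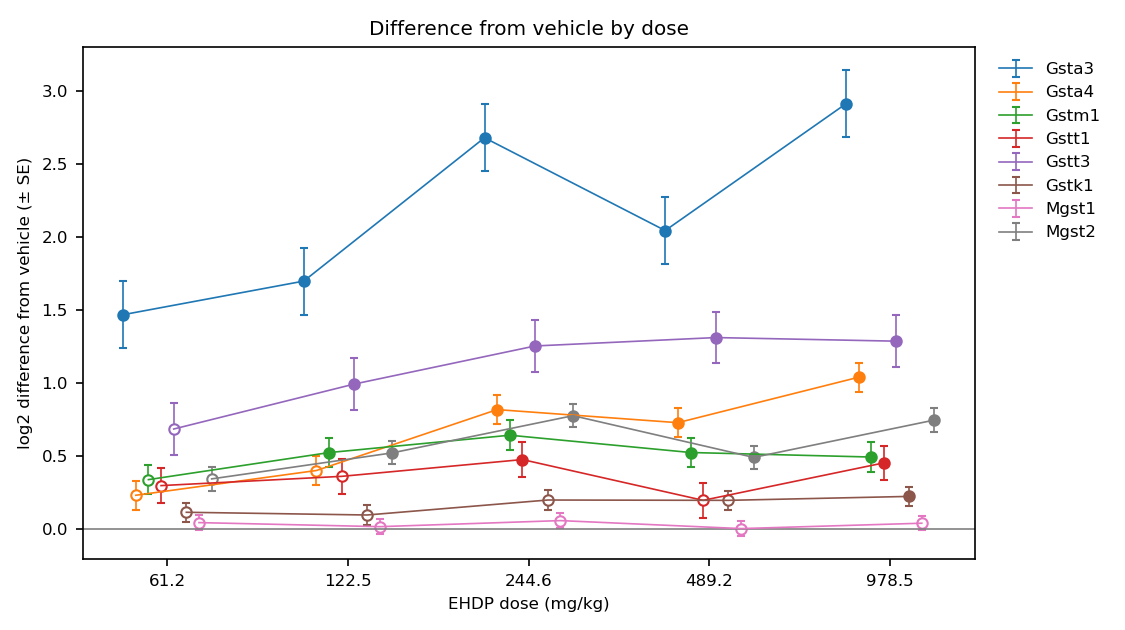
Log2 difference from vehicle ± SE (vertical axis) of the 8 members by EHDP dose in mg/kg (horizontal axis, evenly spaced steps with members offset sideways), from limma with 3 against 6 arrays. Filled points passed the test at an adjusted p under 0.05. Gsta3 lies highest at all 5 doses, at 2.68 for 244.6, 2.04 for 489.2 and 2.91 for 978.5 mg/kg, and Mgst1 lies between 0.00 and 0.05.

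The 23 other enzymes listed for these families included Gsta5. It had no probe set of its own, and its name is also a synonym in the Gsta3 record. Of the 23, 18 had a probe set of their own. Limma called 0, 0, 3, 1 and 4 of them higher in order of dose and none lower. Of all genes, 0.0141%, 0.113%, 2.52%, 1.51% and 6.18% were called higher. The 4 at 978.5 mg/kg were Gstm5 (0.74 ± 0.16, limma adjusted p = 0.00518), Gstm4 (0.70 ± 0.12, limma adjusted p = 0.00107), Gsta1 (0.50 ± 0.08, limma adjusted p = 0.000565) and Gstt2 (0.43 ± 0.11, limma adjusted p = 0.013). These are mu, alpha and theta class enzymes, and in each all 3 arrays exceeded all vehicle arrays. Gsta1, Gstm4 and Gstm5 had passed at 244.6 mg/kg, and Gstm4 alone at 489.2 mg/kg.

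At 978.5 mg/kg the mu class gene Gstm2 differed by 0.64 ± 0.22 (limma adjusted p = 0.068) and the pi class gene Gstp1 by 0.54 ± 0.18 (limma adjusted p = 0.0622). Gstm3 stood at 0.40 and Gstm7 at -0.31 (limma adjusted p = 0.286 and 0.267). Gstz1, Gsto1, Gsto2, Mgst3 and Gstcd lay between 0.10 and 0.23. The prostaglandin and leukotriene enzymes and partners Hpgds, Ptges, Alox5ap and Ltc4s lay between -0.40 and -0.13, and Gdap1 at -0.03. The median over the 18 was 0.14, against 0.62 for the 8 members and -0.02 for all genes. Alpha and mu class genes resemble one another closely in sequence, and the probe sequences were not used here, so part of a signal may come from a related transcript. Whether such transcripts add to the signal named Gsta3 was not tested. A probe set annotated to both Gsta5 and Gsta2 was not named.

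**Figure D4:**
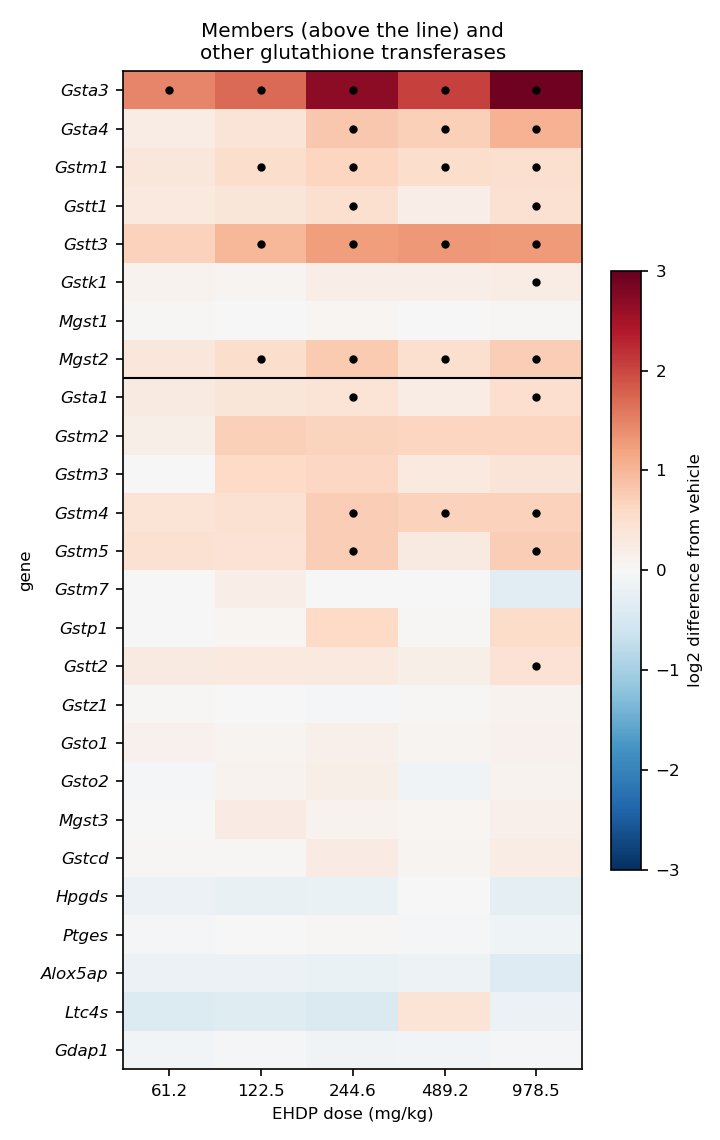
Log2 difference from vehicle (colour, scale from -3 to 3) of the 8 members above the line and 18 other glutathione transferase family genes below it (rows) at 5 EHDP doses in mg/kg (columns). Dots mark an adjusted p under 0.05 in limma. Gsta3 is marked at every dose and Mgst1 at none, and below the line only Gsta1, Gstm4, Gstm5 and Gstt2 carry marks.

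Genes that make and recycle glutathione, the shared substrate of the members, rose in part. Of 25 measured, 0, 0, 5, 5 and 6 rose in order of dose, and 0, 0, 0, 1 and 1 fell, with a median log2 difference of 0.08 at 978.5 mg/kg. The shares of all genes that rose were 0.0141%, 0.113%, 2.52%, 1.51% and 6.18%, and 4.07% fell at 978.5 mg/kg. Glutathione reductase, Gsr, rose by 1.48 ± 0.15 at that dose (limma adjusted p = 4.16e-06). The modifier and catalytic subunits of glutamate-cysteine ligase, Gclm and Gclc, which carry out the first step of synthesis, rose by 1.18 ± 0.14 and 0.80 ± 0.14 (limma adjusted p = 1.7e-05 and 0.00128). The cystine carrier Slc7a11 rose by 0.91 ± 0.13 (limma adjusted p = 0.000193). Txnrd1 and Keap1 completed the 6, at 0.51 and 0.29, and Cbs fell by 0.40 ± 0.09 (limma adjusted p = 0.01). Among those that did not pass, the peroxidase Gpx2 varied widely, at 8.90, 6.21 and 5.89 at 978.5 mg/kg against 4.57 to 6.10 in the vehicle (2.01 ± 0.82, limma adjusted p = 0.131), and Cth stood at -0.36 ± 0.15 (limma adjusted p = 0.147).

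Genes that process or export glutathione conjugates were mixed. Of 17 measured, 0, 1, 1, 3 and 4 rose in order of dose, and 0, 0, 0, 1 and 2 fell, with a median log2 difference of -0.05 at 978.5 mg/kg. Among all genes 0.0141%, 0.113%, 2.52%, 1.51% and 6.18% rose, and 4.07% fell at 978.5 mg/kg. The basolateral exporter Abcc3 rose by 3.50 ± 0.30 (limma adjusted p = 3.62e-07) and the canalicular exporter Abcc2 by 0.79 ± 0.14 (limma adjusted p = 0.00138). Ggt1, the gamma-glutamyl transferase that starts the breakdown of conjugates, rose by 1.12 ± 0.26 (limma adjusted p = 0.00776) and Kyat1 by 0.53 ± 0.09. Abcc6 fell by 0.62 ± 0.12 (limma adjusted p = 0.00237) and Anpep by 0.40 ± 0.11. Abcc4 stood at 0.69 ± 0.26 and the N-acetyltransferase Nat8 at -0.43 ± 0.26 (limma adjusted p = 0.105 and 0.329).

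For the 3 members with at least a 2-fold rise at 978.5 mg/kg, the genes with the most similar profile were found by the root mean square difference of vehicle-centred log2 signals over all 21 arrays, where 0 would be identical. For Gsta3 they were Abcc3 at 0.71, the carboxylesterase Ces2c at 0.76 and the aldo-keto reductase Akr7a3 at 0.78. The distance is not scaled to the size of a change, so it cannot be compared between members. Akr7a3 differed from the vehicle by 1.10, 1.48, 2.02, 1.26 and 1.47 in order of dose. Its mean at 489.2 mg/kg was below those on either side, as was that of Gsta3, whose steps there did not pass. The means of Abcc3 (0.67, 1.62, 2.89, 3.24 and 3.50) and Ces2c (1.24, 2.19, 2.78, 3.32 and 3.79) went higher at each step. For Gsta4 they were Osbpl11 at 0.19, the aldehyde oxidase Aox1 at 0.20 and Mgst2 at 0.20. For Gstt3 they were Ugt2b1 at 0.22, the cytochrome P450 Cyp3a23-3a1 at 0.25 and the retinal dehydrogenase Aldh1a1 at 0.26. These distances are a description and carry no test.

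**Figure D5:**
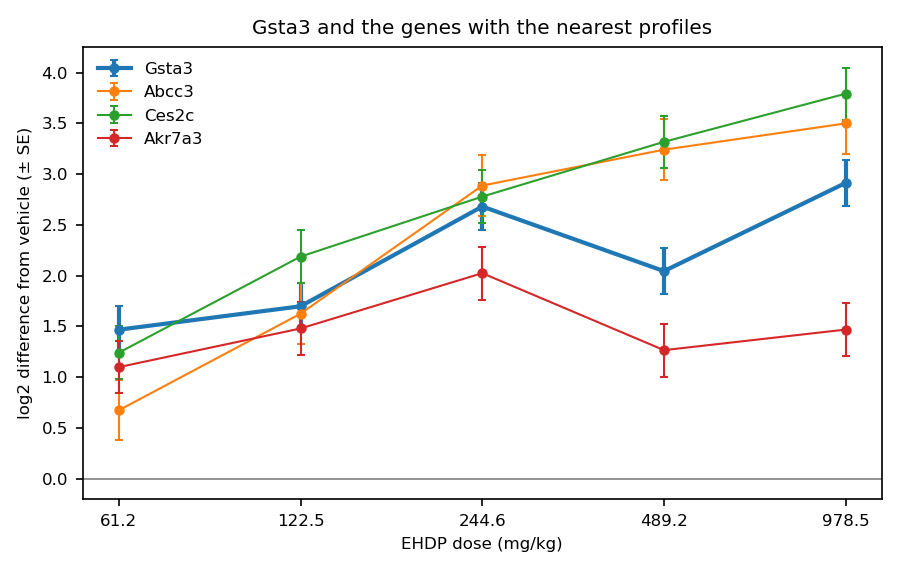
Log2 difference from vehicle ± SE (vertical axis) of Gsta3 and of the 3 genes with the nearest profiles over 21 arrays, by EHDP dose in mg/kg (horizontal axis, evenly spaced steps). At 978.5 mg/kg Gsta3 stands at 2.91, Abcc3 at 3.50, Ces2c at 3.79 and Akr7a3 at 1.47.

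Markers of other cell types and clock genes were read on the same arrays. At 978.5 mg/kg 6.18% of all genes rose and 4.07% fell, and 7869 of 14218 had log2 differences below 0. All 12 Kupffer cell and macrophage markers had log2 differences below 0 there (median -0.62), 1 of which, Cd163, passed. Their mean relative to the vehicle ran from -0.78 to -0.44 on the 3 arrays, against -0.29 to 0.17 in the vehicle. At 489.2 mg/kg it was -1.34 on replicate 1, the array with the highest signal of that group in 6 of the 8 members, and 0.06 and 0.04 on the others. At 978.5 mg/kg replicate 1 likewise had the lowest marker mean (-0.78) and the highest signal in 6 of the 8 members. At 122.5 mg/kg the lowest marker mean was that of replicate 3 (-0.43), highest in 5 of the 8. Replicate 1 had the lowest at 61.2 and 244.6 mg/kg (-0.36 and -0.77), but was highest in 2 and 3 of the 8, and replicate 3 in 4 at both doses. In the vehicle the lowest was replicate 5 (-0.29), highest in 2. A link between markers and members was not tested. Without replicate 1 of 489.2 mg/kg, Gsta3 at that dose differed from the vehicle by 1.70 (limma adjusted p = 0.000345), and 4 members passed there. The share of all genes passing without that array is not given here.

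All 5 red blood cell markers were below 0 (median -1.36) and 3, Hba-a3, Hbb and Alas2, fell. Their mean was -1.25 to -0.63 on the 3 arrays at 978.5 mg/kg against -0.56 to 0.36 in the vehicle. Of 8 pericentral hepatocyte markers Oat and Cyp1a2 fell (list mean -0.17 to -0.15, vehicle -0.09 to 0.08), and of 9 periportal ones Hal and Sds fell and Arg1 rose (list mean -0.29 to -0.16, vehicle -0.12 to 0.08). Of 10 stellate cell and fibroblast markers, all below 0, Reln and Pdgfrb fell (list mean -0.56 to -0.19, vehicle -0.17 to 0.14). Of 7 bile duct markers Epcam rose (list mean -0.09 to 0.05, vehicle -0.20 to 0.12), and none of 8 endothelial markers passed (list mean -0.48 to 0.01, vehicle -0.43 to 0.28). Of 12 clock genes, 5 rose and 3 fell at 978.5 mg/kg, beside 6.18% and 4.07% of all genes, among them Dbp (2.87 ± 0.45) and Npas2 (-1.75 ± 0.17). At 61.2 mg/kg, where 2 of 14218 genes passed, none of the 12 clock genes did, and with so few calls that count says little. The clock list mean there was -0.11 to 0.15 against -0.07 to 0.10 in the vehicle. The part of these shifts in the transferase differences was not tested.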

How the data were processed

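RNA of 21 liver samples was measured on Affymetrix rat expression arrays, 100 ng of total RNA each. The authors deposited log2 signals, computed with RMA per the submitters' processing notes, a method that corrects background, aligns the arrays and summarises probes into probe sets. The version of RMA is not given in the sources used. No further scaling was applied. Of 31099 probe sets, 20832 were paired with 1 gene, 436 with several and 9831 with none, and the last kinds, several and none, were not named. For each of 14218 genes the probe set of highest mean signal stood for the gene.

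Groups came from the labelled doses. Differences were fitted with limma 3.58.1 in R 4.3.3, with 1 mean per group over all 21 arrays (15 residual degrees of freedom), eBayes and Benjamini-Hochberg adjustment over all genes at 0.05, and a slope on dose rank for the trend. Changes of 2 members of a class were set against each other by exactly permuting the 9 arrays of each dose and the vehicle, adjusted over 15 tests. Other steps used Python 3.11.15 with pandas 2.3.3. With 3 arrays per dose, the number of arrays limits the precision.

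The members and gene lists were chosen with earlier results of these data known. Named were the 8 members, every measured gene of the other transferases, and of the other 2 pathway lists up to 4 called genes with the largest difference at 978.5 mg/kg and up to 2 not called. To these came the 3 nearest profiles of each member called there with at least a 2-fold difference. Txnrd1, Keap1, Cbs, Kyat1, Anpep and the called cell type and clock genes were named after their values were seen, to complete a count. In simulated data with 14218 genes, 81%, 83%, 81%, 81% and 78% of genes changed 1.5-fold were recovered in order of dose, and 96% to 98% of those changed 2-fold, with 6 to 12 false calls. The simulation changed equally many genes at every dose, with independent noise. Recovery after this adjustment depends on how many genes change. In the data 0.0141% and 0.113% of genes were called higher at 61.2 and 122.5 mg/kg, so the simulated shares may be too high for those doses. Replicate numbers 1 to 3 recur in every group without being described as pairs.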

Additional observations from a re-analysis of the deposited data

Results flagged for a closer look

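In the vehicle group, 45 genes named above were screened for an array far from the other 5, by the gap to the nearest array as a share of the range. No member of the transferase set was marked, and 5 other genes were, where chance marks about 1 in 20. Gstp1 stood at 8.77 in vehicle replicate 1, below 9.25 to 9.49 on the others. Gstt2 stood at 10.24 in replicate 6, below 10.67 to 10.88. Alox5ap stood at 7.11 in replicate 6, above 6.17 to 6.51. Gpx2 stood at 6.10 in replicate 1, above 4.57 to 4.97. Akr7a3 stood at 11.81 in replicate 4, above 11.20 to 11.34.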

How the results depend on the processing

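Over all alternatives, 2856 values for single members and pairs kept their side of the test, 116 lost the call and 6 gained it. No value that was called turned direction. Of results never called, 12 changed sign in 32 values, 3 of them against the vehicle or over dose rank, all of Mgst1 (at 122.5 mg/kg 1 value, at 489.2 mg/kg 8 and for the trend 1), and the others between neighbouring doses. With 1 array left out at a time, the members called numbered 0 to 1 at 61.2 mg/kg, 1 to 4 at 122.5, 5 to 6 at 244.6, 4 to 6 at 489.2 and 5 to 7 at 978.5 mg/kg, 6 to 7 for the trend, 0 between neighbouring doses, and 13 to 14 of the 15 pair tests. At 61.2 mg/kg the count was 0 with eBayes trend and robust options, median centring, a second quantile normalization, or a floor at the 20th percentile. At 122.5 mg/kg it was 2 with that floor, with only the arrays compared, or with at least a 1.5-fold difference. That fold limit gave 3 at 489.2, 4 at 978.5 mg/kg and 4 for the trend. Array weights gave 6 at 122.5 mg/kg, where Gsta4 and Gstt1 also passed (limma adjusted p = 0.0173 and 0.0153), and 3 between 122.5 and 244.6 mg/kg, and treated arrays alone 2 for the trend. With replicate 1 of every group left out, chosen after seeing the data, the counts were 0 at 61.2, 2 at 122.5, 5 at 244.6, 4 at 489.2 and 4 at 978.5 mg/kg, and 4 for the trend, and the pair tests were not rerun without them. The fold limit can only remove calls. For the others the cause was not tested. The shares of all genes called under these settings are not given here, so the member counts cannot be set against them.

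Residual correlations of same-numbered arrays ran from -0.23 to 0.37 over 45 pairs with a median of 0.06, against -0.02 for different numbers, and 10 of 18 arrays correlated best with their own number. Not every pair was over 0.1 and the labels state no pairing, so the numbers were not taken as pairs, although the endothelial marker mean was lowest on replicate 1 in 6 of 6 groups. With the replicate number as a block, 0 members were called at 61.2 mg/kg (Gsta3 at limma adjusted p = 0.0622), 1 at 122.5 mg/kg (Gstm1, Gstt3 and Mgst2 at limma adjusted p = 0.159, 0.245 and 0.083), 5 at 244.6, 5 at 489.2 and 5 at 978.5 mg/kg, where Gstt1 and Gstk1 dropped out (limma adjusted p = 0.0793 and 0.144), and 5 for the trend. In the block fit, a vehicle array whose replicate number occurs in no dosed group carries no weight. Fewer vehicle arrays thus entered its comparisons, and the share of the lost calls due to this was not tested. Nor is the share of all genes called in the block fit given here. No scaling moved the median of all genes by over 0.1.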
